A study of Caenorhabditis elegans with 2 samples.

Results

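The 10 genes described here encode transcription factors of stress and immunity in *Caenorhabditis elegans*, and their transcripts were followed in heat-stressed worms with and without the p38 kinase PMK-1. They were zip-2, atf-7, skn-1, daf-16, hsf-1, pqm-1, hlh-30, elt-2, xbp-1 and atf-5, chosen by name, and all 10 had reads in both libraries, out of 8731 genes with a read in at least 1. atf-5 is the sequence T04C10.4, which the WBcel235 annotation now names atf-4. The mutant library came from strain KU25 with the deletion allele pmk-1(km25), and the wild-type library from N2 Bristol. Both were made from lysates of whole young adults grown at 20 °C on OP50 bacteria and then kept at 35 °C for 5 h, so the wild type was heated too and unheated worms were not analysed here. There was 1 library per genotype, of 5.23 M uniquely mapped reads in the mutant and 5.78 M in the wild type. No spread between replicates can be given and no test was made, so all values describe 2 libraries. pmk-1 itself had no listed reads in either library, the wild type included, so the deletion could not be checked.

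PMK-1 is the last kinase of a conserved cascade (TIR-1, NSY-1, SEK-1, PMK-1) that guards the worm intestine against pathogens. It phosphorylates ATF-7, which turns from a repressor into an activator of immune genes, and SKN-1, the worm counterpart of the Nrf factors, which drives detoxification. The other factors answer to parallel pathways: HSF-1 to unfolded protein in the cytosol, XBP-1 to unfolded protein in the endoplasmic reticulum, DAF-16 and PQM-1 to insulin signalling, and HLH-30, the counterpart of TFEB, to starvation and lysosomal stress. ELT-2 is the main GATA factor of the intestine, ZIP-2 responds to blocked translation during infection, and ATF-5 is the counterpart of mammalian ATF4 in the integrated stress response. Much of the control of these proteins is known to lie after transcription (phosphorylation, nuclear entry, splicing or upstream reading frames), which read counts do not measure. Proteins were not measured here.

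zip-2 was the one factor at least 2-fold lower in the mutant library, and none was at least 2-fold higher. hsf-1 was 1.53-fold lower, pqm-1 was 1.51-fold higher and atf-5 was 1.89-fold higher, each with a counting interval that excluded 1. For skn-1, xbp-1 and daf-16 the interval reached 1, and atf-7, elt-2 and hlh-30 had too few reads to place. Levels are in CPM, reads scaled to the total of each library, and ratios divide the mutant level by that of the wild type. A ratio is given with its exact 95% interval (conditional binomial, Clopper-Pearson), which covers counting error only. A gene was called only at the level of 50 reads in either library, and then only past 2-fold and with 1 outside its interval. By this rule 1 of the 7 members with at least 50 reads was lower, against 1.75% of all 5198 genes at that level, and 0 of 7 were higher, against 17.6%. Counts of called genes in the gene lists below are to be read against the same shares. At a 1.5-fold limit 2 members were lower (zip-2 and hsf-1), against 27.6% of genes, and 2 were higher (pqm-1 and atf-5), against 25%. With no fold limit the interval lay below 1 for the same 2 members, against 53.6% of genes, and above 1 for the same 2, against 30.2%. The median log2 ratio of the 7 members was 0.10, while that of all genes at the level was -0.33. Over all genes 914 were higher and 91 lower, but a scaling that sets the median of body tissue markers to 0, described below, gave 309 higher and 3545 lower. Under it every log2 ratio is smaller by 1.17, so any log2 ratio given here between 0 and 1.17 takes the other sign. Values relative to the median of all genes stay as they are, since that median also moves, from -0.33 to -1.51. Of the 12 genes named below from the gene lists as higher, only gst-10 is still past 2-fold under it. The share of all genes at the level with a ratio above 1 was 35.7%.

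**Figure D1:**
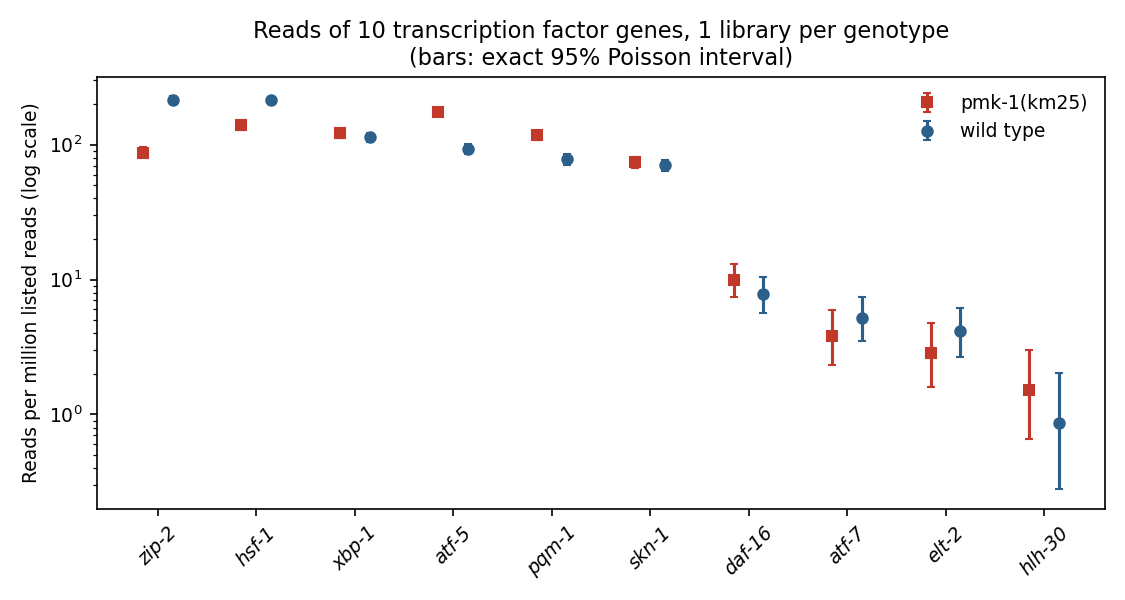
CPM (log scale) of the 10 genes in the pmk-1(km25) library (red squares) and the wild-type library (blue circles), ordered by the wild-type level, with exact 95% Poisson intervals as bars. The 6 most abundant lie between about 70.4 and 215 CPM, and daf-16, atf-7, elt-2 and hlh-30 lie below 10.

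The bZIP gene zip-2 (K02F3.4, chromosome III) had 457 reads in the mutant library and 1245 in the wild type. This is 87.4 CPM (79.5 to 95.8) against 215 CPM (203 to 228), and the 2 Poisson intervals are far apart. The mutant level was 2.46-fold lower (2.21 to 2.75), a log2 ratio of -1.30. Relative to the median of all genes the log2 ratio was -0.97. Ranked from the lowest ratio, zip-2 was number 28 of the 5198 genes at the level. The reads covered 94.0% of its 927 listed bases in the mutant and 98.2% in the wild type, so they came from nearly the whole coding sequence. ZIP-2 is known for inducing infection response genes such as irg-1. Of 7 genes listed as its targets only 2 had reads. irg-1 had 6 in each library, and irg-3 had 63 in the mutant against 34 in the wild type, 2.05-fold higher (1.33 to 3.21), which with the body tissue scaling became a log2 ratio of -0.15.

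atf-7 (C07G2.2, chromosome III), the bZIP gene that acts directly below PMK-1, had 20 reads in the mutant and 30 in the wild type. The ratio was 0.737 with an interval from 0.397 to 1.34, and a 2-fold change in the lower direction lies within that interval. Of 18 genes listed as immune targets of PMK-1 and ATF-7, 15 had reads and 4 passed the level. Of these 3 were lower and none higher, against 1.75% and 17.6% of all genes. The median log2 ratio of these 4 was -4.34, and it was -3.17 with a prior of 5 reads and -3.02 over the 15 genes with reads. C17H12.8, with a CUB-like domain, had 1 read in the mutant against 516, dod-24, of the same family, had 1 against 66, and the lysozyme gene lys-2 had 11 against 129. All 3 reached the level through their wild-type reads alone. The other gene at the level, clec-85, had 97 reads against 139, a ratio of 0.772 (0.589 to 1.01). Outside the level, clec-60 had 35 reads in the mutant and was not listed in the wild type, opposite to the rest of the list, and was chosen for mention after its values were seen. Upstream, 11 of 20 cascade genes had reads. Of the 8 at the level, the phosphatase gene vhp-1 was lower (15 reads against 51, ratio 0.325, 0.17 to 0.588) and none was higher. The p38 gene pmk-3 had 63 reads against 35, a ratio of 1.99 (1.30 to 3.1), just short of 2-fold.

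skn-1 (T19E7.2, chromosome IV) had 386 reads in the mutant and 407 in the wild type. The levels were 73.8 CPM (66.6 to 81.5) and 70.4 CPM (63.7 to 77.5), and they overlap. The ratio of 1.05 had an interval from 0.91 to 1.21, which leaves out a change of 1.5-fold in either direction as far as counting error goes. With the body tissue scaling, though, the log2 ratio was -1.11 and skn-1 was called lower. Nearly all reads were assigned to isoform a, with 375 of 386 in the mutant (97.2%, exact 95% binomial interval 95 to 98.6) and 400 of 407 in the wild type (98.3%, 96.5 to 99.3). Isoform b had 11 reads against 7. The covered bases of isoform a, 313 and 318 of 1872, did not exceed the 318 that reads specific to it can reach. The annotation holds 4 skn-1 models. The shares and the ratio thus describe reads assigned to the listed IDs, and isoform use was not measured. SKN-1 is known to induce glutathione transferase genes and gcs-1, which makes a step of glutathione synthesis. Of 20 listed targets 18 had reads and 10 passed the level. Of these 2 were higher and none lower, against 17.6% and 1.75% of all genes. Their median log2 ratio was 0.42, or -0.75 with the body tissue scaling. gst-10 had 139 reads in the mutant against 32, 4.80-fold higher (3.25 to 7.29), and gst-5 had 170 against 78, 2.41-fold higher (1.83 to 3.19). gcs-1, with 753 against 1112 reads and a ratio of 0.749 (0.682 to 0.822), was the 1 target at the level below 1. Of 13 regulators of SKN-1, 9 passed the level, and none was 2-fold higher or lower. The ERK kinase gene mpk-1 had a ratio of 0.574 (648 reads against 1249), and brap-2 one of 0.646 (354 against 606).

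**Figure D2:**
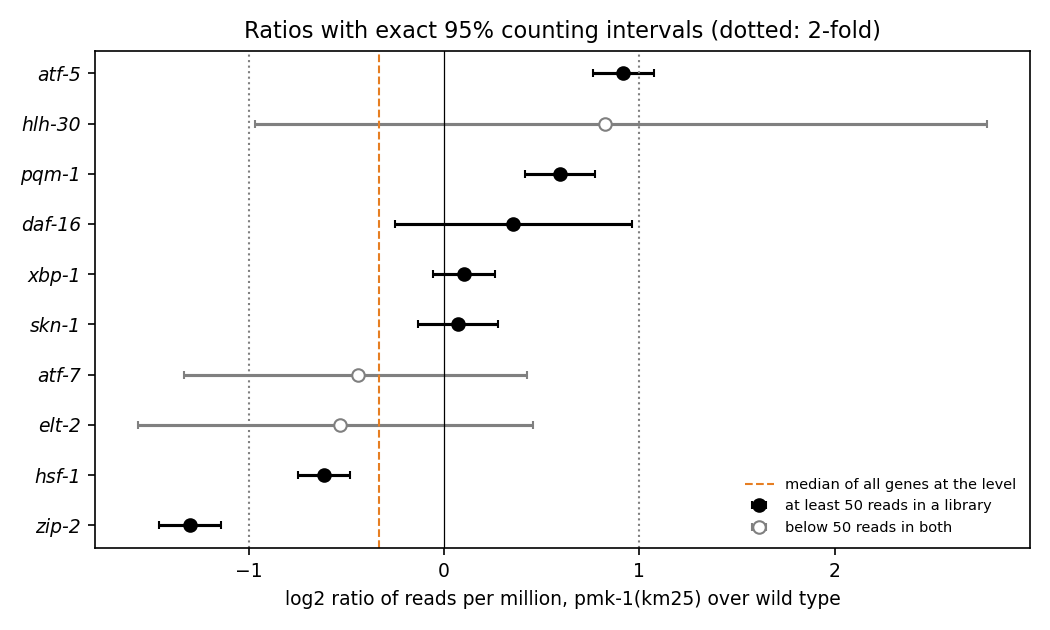
Log2 ratio of CPM, pmk-1(km25) over wild type, for each of the 10 genes with its exact 95% counting interval. zip-2 lies left of the 2-fold line at -1.30, atf-5 is the highest of the filled points at 0.92, and the open points (under 50 reads in both libraries) have intervals that cross 0.

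xbp-1 (R74.3, chromosome III) had 635 reads in the mutant and 654 in the wild type, 121 CPM (112 to 131) against 113 CPM (105 to 122). The ratio of 1.07 had an interval from 0.961 to 1.20, and with the body tissue scaling the log2 ratio of 0.10 became -1.07. IRE-1 activates this factor by cutting an intron out of its mRNA, and the files list 2 IDs for the gene. ID a, of 1008 bases, had 529 reads in the mutant and 545 in the wild type. ID b, of 864 bases, had 106 and 109. The share of ID a was 83.3% in the mutant (80.2 to 86.1) and 83.3% in the wild type (80.3 to 86.1), so the division of reads between the 2 IDs was alike in both libraries within counting error. The annotation holds a single xbp-1 model of 864 bases, and which ID stands for the spliced form was not settled here. Of 25 genes of the endoplasmic reticulum stress pathway, 18 passed the level, with 0 higher and 0 lower (17.6% and 1.75% of all genes). Their median log2 ratio was -0.27, or 0.07 relative to all genes. cdc-48.1, an ATPase that extracts proteins for degradation, had a ratio of 0.582 (0.562 to 0.602), and the choline kinase gene ckb-2 had 36 reads against 65 (0.613, 0.396 to 0.934).

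atf-5 (T04C10.4, chromosome X) had 913 reads in the mutant and 535 in the wild type. The levels were 175 CPM (163 to 186) and 92.5 CPM (84.8 to 101), and the intervals do not meet. The ratio was 1.89 (1.69 to 2.1) and the log2 ratio 0.92, or 1.25 relative to the median of all genes. It passed 2-fold with TMM factors (log2 ratio 1.01) and turned to -0.26 with the scaling on body tissue markers. Reads covered 99.4% of the 627 bases in the mutant and 99.2% in the wild type. Of 20 genes listed for the integrated stress response, 10 passed the level. cth-2, for an enzyme of cysteine synthesis, had 624 reads in the mutant against 329 and was higher (2.1-fold, 1.83 to 2.4), a call that the body tissue scaling ended. eif-2Bdelta, for a subunit of the exchange factor of eIF2, had 30 against 72 and was lower (ratio 0.461, 0.29 to 0.715). The list median was -0.45, near that of all genes.

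hsf-1 (Y53C10A.12, chromosome I), the master regulator of the heat shock response, had 728 reads in the mutant and 1233 in the wild type. This is 139 CPM (129 to 150) against 213 CPM (201 to 225), without overlap. The mutant level was 1.53-fold lower (1.40 to 1.68), a log2 ratio of -0.61, which is -0.28 relative to the median of all genes. Of the genes at the level, 24.5% had a lower ratio than hsf-1. The reads covered 99.9% of 2016 bases in the mutant and 99.7% in the wild type. Of 23 listed HSF-1 targets, 15 passed the level, and 2 were higher and none lower, against 17.6% and 1.75% of all genes. Their median log2 ratio was -0.10. pat-10, for a troponin C of muscle, was 2.19-fold higher (2.07 to 2.31), and the small heat shock gene hsp-43 was 2.16-fold higher (2 to 2.33). Their log2 ratios of 1.13 and 1.11 lie just below 0 with the body tissue scaling. The heat-inducible small heat shock genes hsp-16.2 and hsp-16.41 had ratios of 1.80 and 1.71, with log2 ratios of 0.85 and 0.77 that became -0.32 and -0.40 with that scaling. They belong to a family of near-identical copies, so their counts are uncertain, and hsp-16.1, hsp-16.48 and hsp-70 had no listed reads. Among the regulators of HSF-1, 7 passed the level and none was 2-fold higher or lower. ddl-1, whose protein holds HSF-1 in an inhibitory complex, had 98 reads against 175 (ratio 0.619, 0.479 to 0.798), and daf-41, for a p23 cochaperone, had 2145 against 3342 (ratio 0.71).

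**Figure D3:**
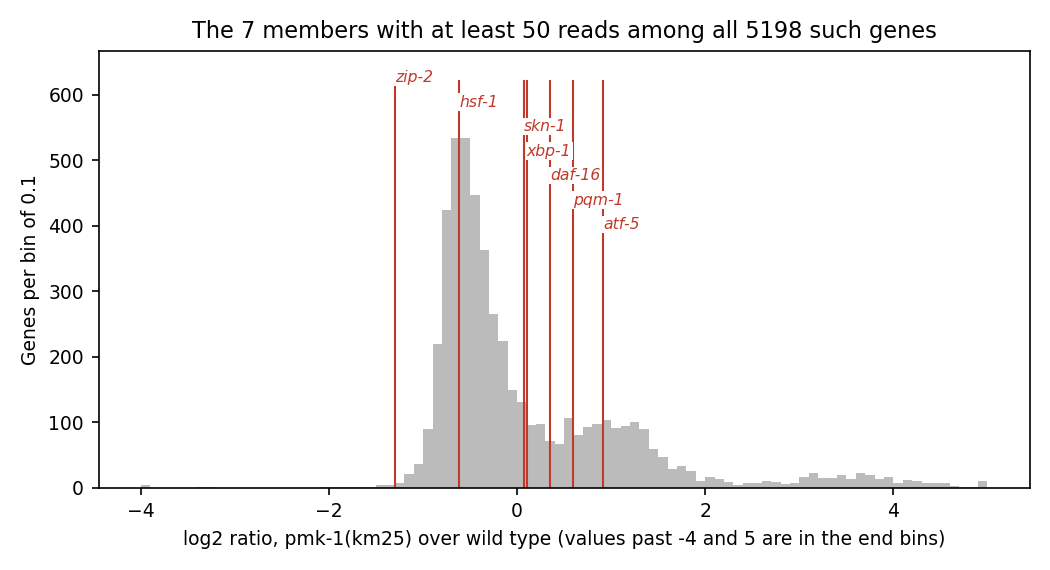
Number of genes per bin of log2 ratio (pmk-1(km25) over wild type) for the 5198 genes at the level of 50 reads, with red lines at the 7 members among them. hsf-1 at -0.61 lies in the main peak, zip-2 at -1.30 in the thin lower tail, and pqm-1 (0.59) and atf-5 (0.92) in the broad shoulder above 0.

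daf-16 (R13H8.1, chromosome I), the FOXO factor of the insulin pathway, had 52 reads in the mutant and 45 in the wild type and passed the level through the mutant reads. The levels of 9.94 CPM (7.42 to 13) and 7.78 CPM (5.67 to 10.41) overlap, and the ratio of 1.28 had an interval from 0.841 to 1.95. Isoform a had 37 reads against 38, isoform b 12 against 6 and isoform h 3 against 1. The share of isoform a was 71.2% (56.9 to 82.9) in the mutant and 84.4% (70.5 to 93.5) in the wild type, with overlapping intervals. Of 26 regulators 13 passed the level, 12 with a ratio below 1, and none was 2-fold lower or higher (median log2 ratio -0.59). Among them was prmt-1, a methyltransferase gene (2363 reads in the mutant against 4594, ratio 0.569). Under the level, ist-1 had 42 reads against 17 (ratio 2.73, 1.52 to 5.12). akt-2, also on the SKN-1 regulator list, had 26 against 7 (ratio 4.11, 1.74 to 11.2), while pdk-1 had 7 against 12. Over all DAF-16 regulators with reads the median log2 ratio was -0.50. Of 20 targets 10 passed the level, and 6 were higher and none lower, against 17.6% and 1.75% of all genes. Their median log2 ratio was 1.08, which turned to -0.09 with the body tissue scaling. icl-1, of the glyoxylate cycle, was 4.18-fold higher (3.29 to 5.36), and dod-6 was 4.32-fold higher (3.07 to 6.19).

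pqm-1 (F40F8.7, chromosome II), a zinc finger gene whose protein is known to leave the nucleus when DAF-16 enters it, had 613 reads in the mutant and 450 in the wild type. The levels were 117 CPM (108 to 127) and 77.8 CPM (70.8 to 85.3), without overlap. The ratio was 1.51 (1.33 to 1.71), the log2 ratio 0.59, and 0.93 relative to all genes, and the log2 ratio turned to -0.58 with the body tissue scaling. Of 19 listed targets 12 passed the level, and 3 were higher and 1 was lower, against 17.6% and 1.75% of all genes. Their median log2 ratio was 0.73, or -0.45 with the body tissue scaling. spp-1, a saposin-like antimicrobial gene, was 4.03-fold higher (3.19 to 5.15), while dod-24, which is also on the PMK-1 list, was lower.

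elt-2 (C33D3.1, chromosome X) had 15 reads in the mutant and 24 in the wild type. The levels of 2.87 CPM (1.61 to 4.73) and 4.15 CPM (2.66 to 6.17) overlap, and the ratio of 0.691 had an interval from 0.337 to 1.37. Its direction could not be given at this depth. All 7 markers of the intestine, where ELT-2 acts, that were at the level had a ratio above 1 (median log2 ratio 0.89), and the 12 with reads summed to 5614 CPM in the mutant and 2871 CPM in the wild type. ges-1 had no listed reads in either library. Of the other GATA genes, egl-18 (128 reads against 264, ratio 0.536) and egl-27 (58 against 108, ratio 0.594) passed the level, and neither was 2-fold lower.

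hlh-30 (W02C12.3, chromosome IV) had 8 reads in the mutant and 5 in the wild type, all assigned to isoform g. Its ratio of 1.77 had an interval from 0.51 to 6.87, so no direction could be given with so few reads. Genes of the same regulatory family were better covered. mxl-3, a bHLH repressor that competes with HLH-30 for lipase promoters, had 361 reads in the mutant against 133 and was 3-fold higher (2.45 to 3.69). mdl-1, of the Mad-like factors, had 1102 against 526 and was 2.32-fold higher (2.09 to 2.58). These 2 were the only genes called among the 10 partners and regulators at the level, with log2 ratios of 1.58 and 1.21, and the next highest was mml-1 with 0.42. With the body tissue scaling they became 0.41 and 0.04, and both calls ended. Of 27 autophagy and lysosome targets 18 passed the level, none was 2-fold higher or lower, and 15 had a ratio above 1 (median log2 ratio 0.22, or -0.96 with the body tissue scaling). The cathepsin genes asp-1 (ratio 1.86) and cpl-1 (ratio 1.70) were the highest, and asp-1 is also among the intestine markers.

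Levels can be compared between genes only per coding length, in RPKM, and directly only for the 5 members with 1 ID and 1 annotated model. In the mutant library the order of RPKM was atf-5 (278, Poisson interval 261 to 297), pqm-1 (132, 122 to 143), zip-2 (94.3, 85.8 to 103), hsf-1 (69.0, 64.1 to 74.2) and elt-2 (2.2, 1.23 to 3.63). In the wild type it was zip-2 (232, 219 to 245), atf-5 (148, 135 to 161), hsf-1 (106, 99.9 to 112), pqm-1 (87.6, 79.7 to 96.1) and elt-2 (3.19, 2.04 to 4.74). zip-2 thus stood behind atf-5 and pqm-1 in the mutant and ahead of both in the wild type, and no neighbouring intervals in either order overlapped. Among 46 other transcription factor genes, the one nearest to hsf-1 in RPKM over both libraries was mxl-2 (69.0 RPKM in the mutant and 102 in the wild type, distance 0.05 on the log2 scale), which pairs with MML-1. zip-9 was nearest to both pqm-1 (distance 0.58) and atf-5 (0.73), with 187 RPKM in the mutant and 108 in the wild type. For zip-2 the nearest gene was lin-35 at a distance of 0.84, the largest distance among the 7 members compared. These 7 include skn-1, daf-16 and xbp-1, whose RPKM is summed over several IDs, so their distances are not directly comparable. The same can hold for other factor genes with several IDs. Since only 2 libraries enter, such a distance says that levels are near and nothing about shared control.

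**Figure D4:**
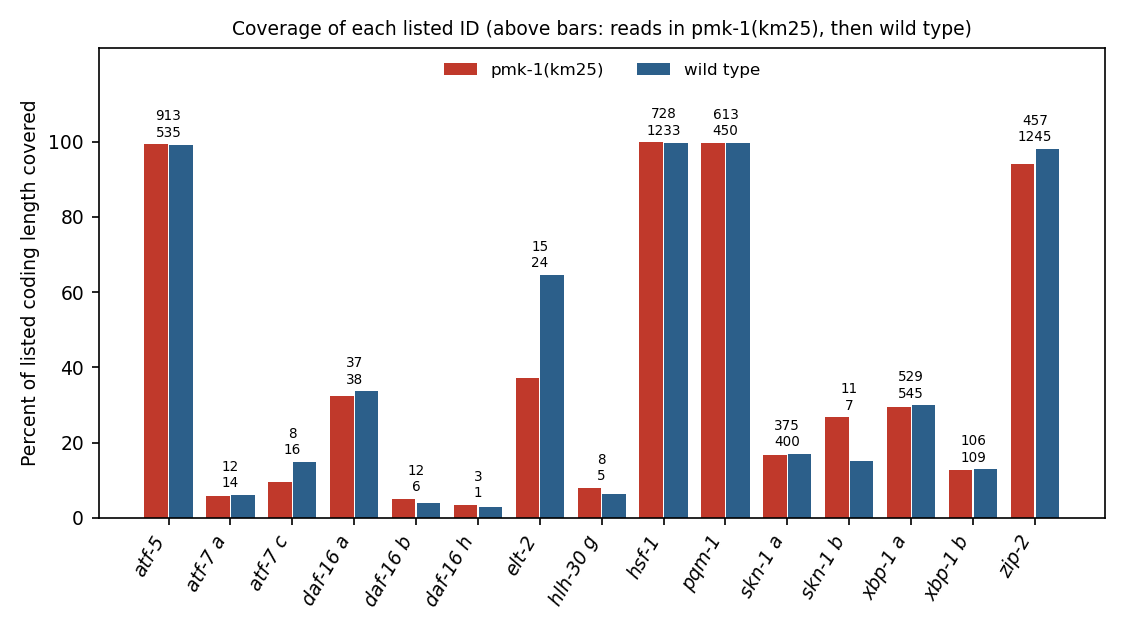
Percent of the listed coding length covered by reads for each of the 15 listed IDs of the 10 genes, in pmk-1(km25) (red) and wild type (blue), with the reads of each above the bars (mutant over wild type). IDs without an isoform letter are, except elt-2, covered almost completely, while skn-1 a, with 375 and 400 reads, is covered at 16.7% and 17%.

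The reads of the genes with isoforms covered small parts of their listed sequence. IDs with exactly 1 read were covered over 49 bases, which is taken as the read length. In skn-1 isoform a, 313 of 1872 bases were covered in the mutant and 318 in the wild type. The annotated model of isoform a holds 270 bases that no other skn-1 model shares, and reads of 49 bases that are specific to it can reach 318. Of the 8 member IDs with such a limit, 7 were covered within it in both libraries. The exception was daf-16 b, which no specific read can reach in this annotation and which had 12 reads against 6. The files hold covered lengths and no read positions, so where in a coding sequence the reads lie was not seen. For members with isoforms, shares and ratios therefore describe reads assigned to the listed IDs, and isoform use was not measured. Scaled to the covered bases, a measure added after the values were seen, skn-1 a had 229 RPKM in the mutant and 217 in the wild type, and xbp-1 a had 342 and 312. The same measure gave 100 and 237 for zip-2 and 280 and 149 for atf-5.

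The 5 bZIP members can be set beside the rest of their family. Of 31 bZIP genes listed, 24 had reads and 13 passed the level, with a median log2 ratio of 0.10. zip-2 was the only one of the 13 that was lower, and fos-1, a Fos counterpart with 60 reads against 28, the only one that was higher (2.37-fold, 1.49 to 3.86). atf-8 had 136 reads against 79, a ratio of 1.90 (1.43 to 2.55), close to that of atf-5. At the level, the lowest ratio after zip-2 was that of zip-10, with 38 reads against 62 (0.678, 0.44 to 1.03), whose interval reached 1. Among 9 other stress and immunity factors at the level, none was 2-fold higher or lower, and 7 had a ratio below 1. Their median log2 ratio was -0.56, but over the 22 genes of that list with any reads it was 0.15. The latter is the value of genes with 4 reads in each library, and follows from the library totals alone. Of the genes of that list at the level, klf-1 (108 against 71 reads, ratio 1.68) and egl-27 lay at the ends.

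**Figure D5:**
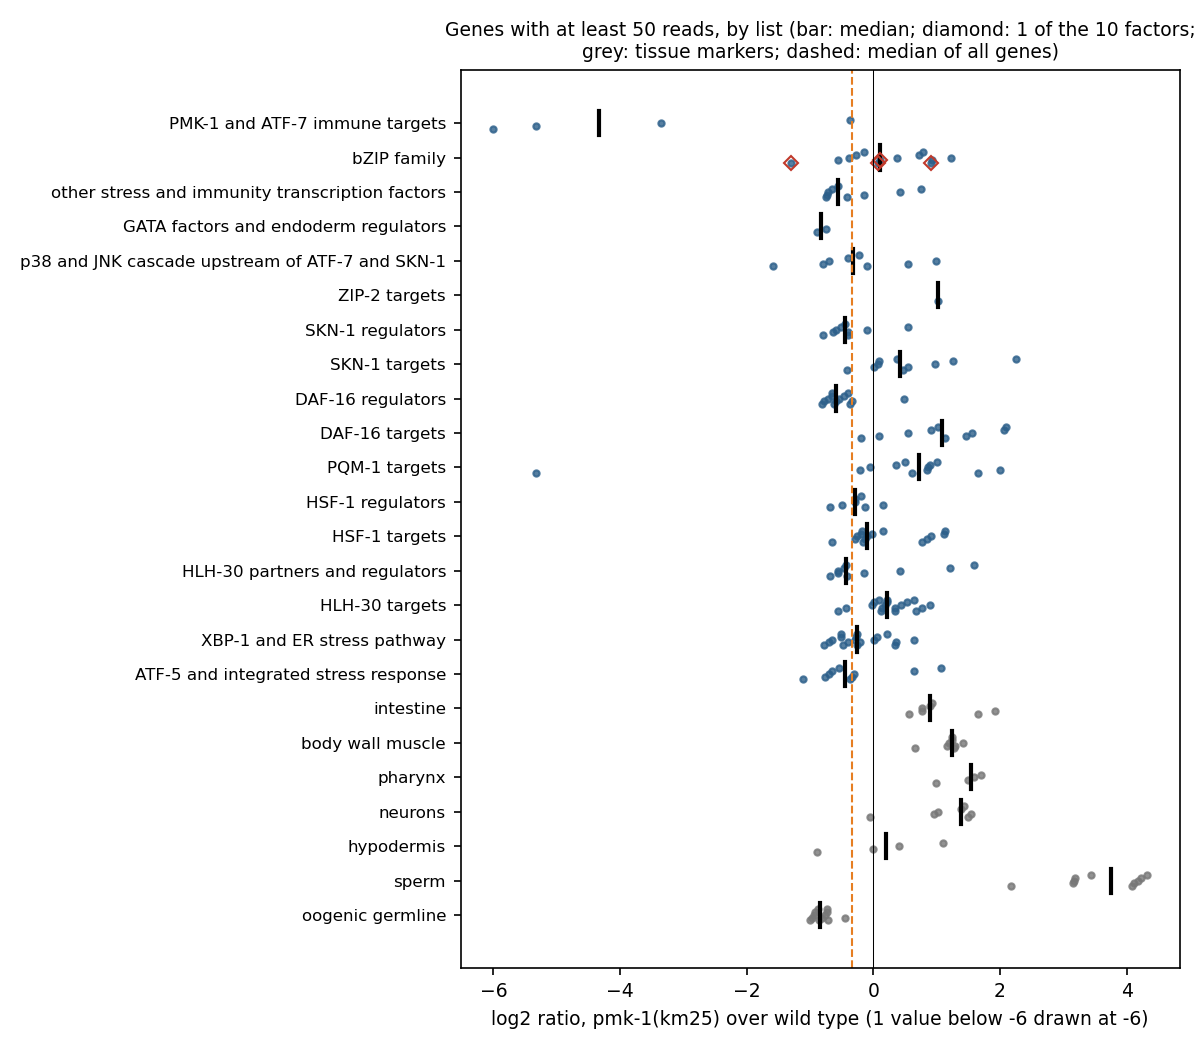
Log2 ratio (pmk-1(km25) over wild type) of each gene with at least 50 reads, by list, with a bar at each median, diamonds for the members and the median of all genes dashed. Of the 4 immune targets 3 lie far left of 0, while clec-85 lies at -0.37. Targets of DAF-16 and PQM-1 and most tissue markers (grey) lie mostly right of 0, and oogenic germline markers lie between -1.01 and -0.45.

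Tissue markers differed between the libraries and are given beside these ratios, since whole worms were sequenced and fewer cells of a type and less RNA per cell cannot be told apart. The 30 markers of intestine, body wall muscle, pharynx, neurons and hypodermis at the level had a median log2 ratio of 1.17. The tissues differed, with medians of 1.54 in pharynx, 1.39 in neurons, 1.25 in body wall muscle and 0.89 in intestine. In hypodermis the median was 0.21, and 2 of 4 markers at the level had a ratio below 1. Scaling the libraries to set the joint median of 1.17 to 0 lowers every log2 ratio by that amount. This leaves all 10 members below 0, zip-2 at -2.47 and hsf-1 at -1.79. All 12 oogenic germline markers at the level had ratios below 1, with a median log2 ratio of -0.84, and 1 of them, egg-3 at -1.01, was called lower. They summed to 6002 CPM in the mutant and 10480 CPM in the wild type, and cbd-1, glp-1 and oma-1 had no listed reads. hsf-1, at -0.61, lies within their range, while zip-2, at -1.30, lies below each of them. The 13 sperm markers with reads summed to 428 CPM in the mutant against 38.7 CPM. The part of tissue makeup in the ratios of the 10 genes was not tested.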

How the data were processed

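Per the file headers, the authors deposited, for each coding sequence ID, the count of reads that map uniquely, an RPKM value and the percent of its length that reads cover. The genome build was not given in the sources used here, nor were aligner, annotation and strand setting, and coordinates are left out. Per the labels' protocols, poly(A) RNA was purified with oligo(dT), primed at random and run on a HiSeq2000.

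IDs (9430) were matched by sequence name to the WBcel235 annotation. Of them 9383 matched, isoform letters were dropped and reads summed per gene. An ID absent from a library counted as 0 reads, which was not tested. A count of 0 allows up to 3 reads (0.574 CPM in the mutant, 0.519 in the wild type). Reads from overlapping or near-identical genes are uncertain. Log2 ratios used a prior of 0.5 reads. The code for ratio calls was tested on simulated data. Intervals treat reads as independent molecules.

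Members and gene lists were chosen with earlier results of these data known, and lists were written from general knowledge. Some genes stand on several lists, so the lists are not independent. For example, asp-1 and cpr-1 are targets (of HLH-30 and PQM-1) and intestine markers. ctl-1 and ctl-2 are listed for both SKN-1 and DAF-16, and hsp-90 is listed as both target and regulator of HSF-1. Up to 2 genes per list are named, those at the level of 50 reads with the largest absolute log2 ratio. One gene that this rule names is not reported here. Others (lys-2, clec-85, gcs-1, hsp-16.2, hsp-16.41, zip-10, clec-60, irg-1, egg-3, sysm-1, atf-2, ces-2, ist-1, akt-2, pdk-1, elt-1, elt-3, elt-4, elt-6, elt-7) were named after their values were seen. The nearest gene was taken over log2(RPKM + 0.1). The alternatives were TMM (edgeR 4.0.16) and median-of-ratios factors, scaling on body tissue markers, a prior of 5 reads, levels of 10 reads or none, 1 ID per gene, the deposited RPKM and a 1.5-fold limit. Sequences of the genes were not used here. Scripts ran in Python 3.11.15 with scipy 1.17.1.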

Additional observations from a re-analysis of the deposited data

How the results depend on the processing

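zip-2 stayed at least 2-fold lower in all 9 alternatives tried, with log2 ratios from -2.47 to -1.21. The count of members at least 2-fold higher changed from 0 to 1 with TMM factors (atf-5) and to 2 at the 1.5-fold limit. The count at least 2-fold lower changed from 1 to 2 at the 1.5-fold limit and to 4 with the scaling on body tissue markers (skn-1 and xbp-1 added to zip-2 and hsf-1), which also moved the median log2 ratio of the members from 0.10 to -1.07. In the other settings both counts were unchanged and the median lay between 0.07 and 0.15. The median was 0.19 with TMM factors. With that scaling 68.2% of all genes at the level were lower. The cause was the shift of 1.17 that the scaling sets. Over all genes, TMM gave 1009 higher and 59 lower against 914 and 91, a level of 10 reads gave 1531 and 157, and no level gave 1601 and 164, with more genes counted. With no level the median of the GATA list turned from -0.82 to 0.07. No paired analysis was possible because each genotype has 1 library, and leaving out a replicate was not possible for the same reason. daf-16 passed the level only with the reads of its 3 IDs summed. Few reads limit atf-7, elt-2 and hlh-30, whose intervals reach from below 1 to above it by wide margins. Reads specific to hlh-30 g can reach 110 of its 1314 bases. For atf-7 a they can reach 96 of 1374, and for atf-7 c 240 of 1530. Whether the low counts of atf-7 and hlh-30 come from this short reach or from low levels was not tested.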
